A study of Rattus norvegicus with 40 samples.

Results

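The genes followed here encode extracellular and growth-control proteins that are known early targets of serum, stretch and stress signals: Ccn1, Ccn2 and Thbs1 (secreted matricellular proteins), Plaur (a cell surface receptor), Hbegf (a growth factor), and Srf and Myc (transcription factors). Every probe set whose platform symbol was one of these 7 names was taken. This gave 9 probe sets of 6 genes, out of 31042 probe sets and 14217 named genes on the array. Ccn1, Ccn2, Hbegf and Myc had a single probe set each, Plaur had 2 and Srf had 3. Thbs1 was not analysed here. Of the 9 probe sets, 8 were bright enough to be tested, and the dimmer Plaur probe set (1371286_at) was not.

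The cells were ventricular myocytes isolated from neonatal rat hearts and kept in culture, and their total RNA was hybridised to 40 Affymetrix rat arrays. The model was coverslip hypoxia, in which a coverslip laid on the cells limits their exchange with the medium. The labels name 2 arms, ischemia+reperfusion and ischemia alone, and 5 times in each, 0, 10, 30, 60 and 120 min, which makes 10 groups of 4 arrays. Each group held a 1st and a 2nd cell preparation with 2 duplicates of each. Preparations of the same number were taken as shared by all groups, which the sample titles do not state. The labels name no strain, no age beyond neonatal and no length of reperfusion, and do not say which step the minutes time. Nothing says that duplicates came from separate cultures, so they were averaged, n is 2 preparations per group, and the p-values measure a spread that may be partly technical.

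CCN proteins are not structural parts of the matrix but signals placed in it. They bind integrins and heparan sulfate proteoglycans, and their genes are switched on within minutes to hours by serum, stretch and stress, through serum response factor (SRF) and through YAP with the TEAD factors. Plaur encodes the urokinase receptor, which holds urokinase at the cell surface where it activates plasminogen. Hbegf encodes heparin-binding EGF-like growth factor, which is shed from the membrane to activate EGF receptors, and in heart muscle cells this shedding is a known step in hypertrophic signalling. Srf binds CArG boxes in the promoters of immediate early and muscle genes. Myc is a basic helix-loop-helix factor that binds E-boxes together with its partner Max and drives growth and ribosome production.

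The 250 bases before the start that the RefSeq promoter table uses are shown for the 4 members whose window held a match to a motif of such early response factors and which had a tested probe set. They are from build GRCr8, in the direction of the gene, and the end of the Srf window runs past the outermost annotated start of that gene. The letters searched on both strands were GGAATG (TEAD core), TGANTCA (AP-1), CACGTG (E-box) and the CArG box, and no matches overlapped. Capitals mark the matches. The Ccn1 window (chr2:237225690-237225939, minus strand) held a single TEAD core in reverse orientation, and the Ccn2 window (chr1:22624615-22624864, minus strand) held 3. The Plaur window (chr1:89181113-89181362, plus strand) held 1 AP-1 match and the Srf window (chr9:21923826-21924075, plus strand) held 2 CArG boxes.
Ccn1: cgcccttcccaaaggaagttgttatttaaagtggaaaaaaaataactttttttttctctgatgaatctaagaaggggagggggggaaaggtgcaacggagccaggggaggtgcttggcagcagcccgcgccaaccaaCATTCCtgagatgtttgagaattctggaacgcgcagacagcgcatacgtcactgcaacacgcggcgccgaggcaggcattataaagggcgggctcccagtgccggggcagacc
Ccn2: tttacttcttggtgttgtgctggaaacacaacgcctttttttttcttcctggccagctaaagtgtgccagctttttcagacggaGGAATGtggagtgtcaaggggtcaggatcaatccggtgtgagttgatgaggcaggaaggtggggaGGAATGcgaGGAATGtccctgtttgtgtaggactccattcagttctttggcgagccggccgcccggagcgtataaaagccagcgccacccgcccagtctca
Plaur: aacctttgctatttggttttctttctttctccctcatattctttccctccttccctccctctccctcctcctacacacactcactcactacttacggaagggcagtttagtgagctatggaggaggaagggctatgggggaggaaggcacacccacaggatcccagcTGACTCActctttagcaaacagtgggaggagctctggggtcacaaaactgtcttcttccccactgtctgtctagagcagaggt
Srf: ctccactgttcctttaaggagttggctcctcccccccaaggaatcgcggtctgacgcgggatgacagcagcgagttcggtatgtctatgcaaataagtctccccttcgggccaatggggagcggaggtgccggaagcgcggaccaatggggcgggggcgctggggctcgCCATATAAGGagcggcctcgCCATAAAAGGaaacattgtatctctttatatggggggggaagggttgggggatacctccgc
Of 33469 promoter windows of the same length, 12.1% held a TEAD core, 6.34% an AP-1 match, 5.59% an E-box and 1.5% a CArG box. Promoter entries were found for 6 of the 7 names. The Hbegf window held none of these letters, and the Myc promoter is not shown. The arrays measured RNA and hold no measure of binding, so a match describes the sequence only.

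Intensities were quantile-normalized between arrays, and changes are differences of log2(intensity + 16), with the standard error (SE) from limma. Values of a group are given in the order 1st preparation duplicate 1, 1st preparation duplicate 2, 2nd preparation duplicate 1, 2nd preparation duplicate 2. A call is a Benjamini-Hochberg adjusted p under 0.05, with each comparison adjusted across all 18625 tested probe sets. Some arrays stood apart from their labels: 21 of the 40 arrays correlated best with another group, 7 of them by a gap over 0.1. The clearest case was a pair of 2nd preparation arrays at 120 min, ischemia+reperfusion duplicate 1 and ischemia duplicate 2. Their log2 values for Hspa1a, an inducible heat shock protein, were 9.75 (the other 3 arrays of its group 13 to 13.25) and 13.15 (the other 3 arrays 9.62 to 10.19), so each resembled the other arm. A further 3 arrays were in doubt, ischemia+reperfusion at 10 and 30 min (2nd preparation, duplicate 1) and ischemia at 0 min (1st preparation, duplicate 1), and values without these 5 arrays are given for the main comparisons that hold any of them. The doubted ischemia array at 0 min was nearest its own group but had the lowest median correlation with other arrays (0.872). The remaining arrays with a gap over 0.1 stayed in those values. They were ischemia at 60 min (1st preparation, duplicate 2, gap 0.132) and ischemia+reperfusion at 30 min (1st preparation, duplicates 1 and 2, gaps 0.152 and 0.102).

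The cells had the markers of heart muscle and of other heart cells. All 12 cardiomyocyte markers were above the brightness limit, from Ryr2 at a mean intensity of 2780 to Nppa at 13811. All 9 fibroblast markers were also above it, from Tcf21 at 326 to Col1a2 at 9610, so the cultures held fibroblast RNA. Endothelial markers were dimmer, with Vwf at 27.9 and Kdr at 972, and among leukocyte markers Cd163 lay below 0 while Lyz2 had 3023. In such a mixed culture, fewer cells of a type and less RNA per cell cannot be told apart.

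Of the 8 tested probe sets, 2 were called, each in a single comparison. In single comparisons, limma called from 0% to 12.9% of all probe sets. The share of all probe sets called in any comparison at all was not computed, so the count of 2 has no like background. Plaur rose at 120 min of ischemia+reperfusion against 0 min, by 1.01 ± 0.245 log2 units (adjusted p = 0.035), where 7.17% of all probe sets were called. Ccn1 was lower in ischemia+reperfusion than in ischemia at 60 min, by a log2 difference of -0.93 ± 0.189 (adjusted p = 0.024). In that comparison 5.38% of all probe sets were called. Ccn2, Hbegf, Myc and the 3 Srf probe sets were not called in any of the comparisons with limma.

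**Figure D1:**
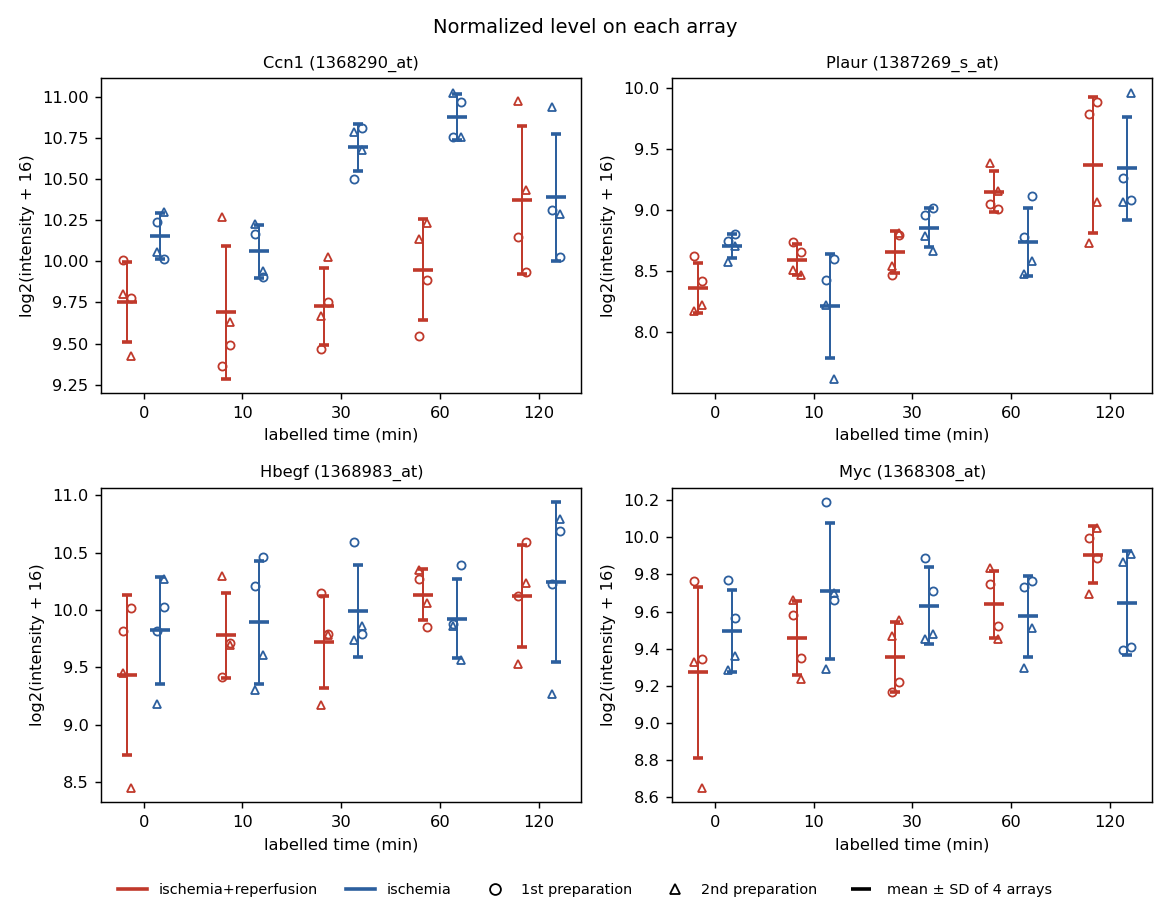
Normalized level, log2(intensity + 16), of Ccn1, Plaur, Hbegf and Myc on each array against the labelled time in min, with ischemia+reperfusion in red on the left and ischemia in blue on the right of each time. Circles are the 1st and triangles the 2nd preparation, and bars are the mean ± SD of 4 arrays. Ccn1 in ischemia+reperfusion lies below all ischemia arrays at 30 and 60 min, and the Plaur arrays at 120 min spread widely (SD 0.558 in ischemia+reperfusion and 0.422 in ischemia). Times are evenly spaced on the axis, not to scale.

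Ccn1, a CCN protein that acts on adhesion, survival and senescence through integrins, was measured by 1 probe set (1368290_at) brighter than 86.0% of all probe sets. At 60 min its intensities were 731, 930, 1111 and 1185 in ischemia+reperfusion, against 1716, 1986, 2066 and 1710 in ischemia. All 4 ischemia+reperfusion arrays lay below all 4 ischemia arrays, at a fold of 0.526 (95% interval of the log2 difference -1.34 to -0.51). The difference was present in both preparations, -1.15 in the 1st and -0.71 in the 2nd, and larger in the 1st. Without the preparation block the adjusted p was 0.053. None of the 5 doubted arrays lies at 60 min. The ischemia array with 1986, which was kept, correlated better with ischemia at 30 min than with its own group (gap 0.132). Leaving out the 5 doubted arrays could change this comparison only through the scaling, the shared spread and the adjustment (-0.93, adjusted p = 0.018). At this time 5.38% of all probe sets were called, and 22.3% had arrays of the arms that did not overlap.

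At 30 min the Ccn1 intensities were 691, 845, 796 and 1027 in ischemia+reperfusion, against 1429, 1782, 1749 and 1623 in ischemia. The groups again did not overlap, as for 13.6% of probe sets, and the log2 difference was of a like size, -0.97 ± 0.189. It missed the threshold (adjusted p = 0.053), and 0.532% of all probe sets were called. Without the 5 doubted arrays, 1 of them in this comparison, it was -0.88 ± 0.19 and was called (adjusted p = 0.044). At 0 min the arrays of the arms did not overlap either, with 1014, 860, 876 and 672 in ischemia+reperfusion and 1191, 1019, 1051 and 1247 in ischemia, as for 9.66% of probe sets. The log2 difference there was -0.40 ± 0.189 (adjusted p = 0.29), with 0.333% of probe sets called, and without the doubted arrays it was -0.35 (adjusted p = 0.41).

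At 10 and 120 min the Ccn1 arrays of the arms overlapped. The log2 difference at 10 min was -0.37 (adjusted p = 0.56), or -0.53 without the doubted arrays (adjusted p = 0.38). At 120 min, where 2 of the doubted arrays lie, it was -0.02 (adjusted p = 0.998), or -0.31 without them (adjusted p = 0.36).

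The comparison of the arms at a given time takes no account of their difference at 0 min. Taken relative to 0 min, the Ccn1 difference of the arms was -0.57 ± 0.268 at 30 min (adjusted p = 0.82) and -0.53 ± 0.268 at 60 min (adjusted p = 0.50), with 95% intervals of -1.15 to 0.02 and -1.11 to 0.06. These intervals hold both no difference and a difference of over 1 log2 unit.

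Within the ischemia arm, mean Ccn1 intensity was 1127 at 0 min, 1057 at 10 min, 1646 at 30 min, 1870 at 60 min and 1364 at 120 min. All arrays at 30 min and at 60 min lay above all arrays at 0 min, as for 8.94% and 10.4% of probe sets in either direction. The log2 differences from 0 min were 0.54 at 30 min (adjusted p = 0.23) and 0.72 at 60 min (adjusted p = 0.15), with both preparations alike, 0.53 and 0.55 at 30 min and 0.74 and 0.71 at 60 min. Without the doubted arrays, 1 of them at 0 min, they were 0.60 (adjusted p = 0.23) and 0.78 (adjusted p = 0.11). They were not called, in comparisons where limma called 0.0966% and 0.129% of all probe sets. Over the 5 times of ischemia together, the F test gave an adjusted p of 0.068.

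Within ischemia+reperfusion, mean Ccn1 intensity was 855 at 0 min, 837 at 10 min, 840 at 30 min, 989 at 60 min and 1360 at 120 min. At 120 min its arrays read 1119, 962, 1994 and 1368, and the highest, 1994, is the doubted array with the low Hspa1a. The log2 difference from 0 min was 0.62 ± 0.189 (adjusted p = 0.073), 0.15 in the 1st and 1.09 in the 2nd preparation. Without the doubted arrays it was 0.49 ± 0.19 (adjusted p = 0.14). Of the neighbours in the order of the 10 group means, only ischemia at 60 and 30 min, the top pair, were further apart (0.183) than the larger of their SDs (0.143).

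Marker levels beside the Ccn1 difference at 60 min were as follows. The summed cardiomyocyte markers were 108150 to 112940 in ischemia+reperfusion, against 116000 to 121700 in ischemia. The summed fibroblast markers were 37772 to 42224 in ischemia+reperfusion, against 35302 to 38888 in ischemia. In limma 0 of 12 and 0 of 9 were called, and 2 and 3 had an unadjusted p under 0.05, against 24.1% of all probe sets. Their log2 differences ran from -0.827 to 0.007 and from -0.223 to 0.293. Of 6 endothelial, 5 smooth muscle and mural and 9 leukocyte markers 0 were called, with 1, 1 and 2 at an unadjusted p under 0.05. Those differences ran from -0.521 to 0.167, from -1.866 to 0.139 and from -0.32 to 0.636. The part of these cell types in the Ccn1 difference was not tested.

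**Figure D2:**
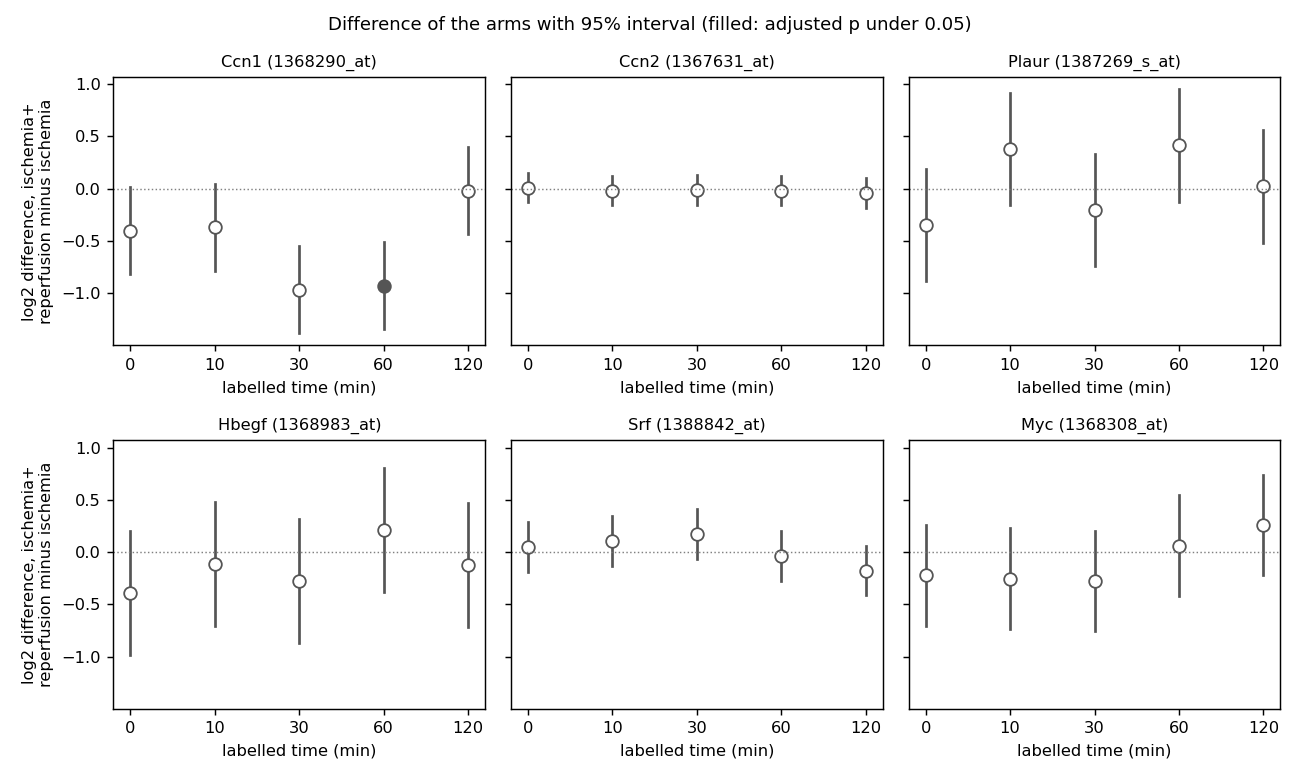
Log2 difference of ischemia+reperfusion minus ischemia at each labelled time in min for the brightest probe set of 6 genes, with 95% intervals. The filled point, Ccn1 at 60 min (-0.93), is the called one, and the intervals of Ccn2 are the narrowest.

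Ccn2, known as connective tissue growth factor, is a fibrosis-linked CCN protein and a commonly used readout of YAP and TEAD activity. It stood near the top of the array, brighter than 99.9% of probe sets (1367631_at), with intensities from 10421 to 12102 over the 40 arrays. Its 10 group means spanned 0.083 log2 units. At 60 min, where Ccn1 was called, Ccn2 had 10972, 11496, 11573 and 11978 in ischemia+reperfusion and 12102, 11836, 11432 and 11308 in ischemia. The groups overlapped, and the log2 difference was -0.02 (95% interval -0.16 to 0.12, adjusted p = 0.88).

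Against 0 min, the largest Ccn2 difference was 0.08 at 120 min of ischemia, with an interval of -0.06 to 0.22. The intervals of all 8 comparisons with 0 min lay between -0.15 and 0.22. Before normalization the values ran from 9096 to 14420, on a scale whose highest value was 17404. Quantile normalization holds the brightest probe sets close to their shared ranks, and how far the top of the scale compresses a change was not tested.

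Plaur, the urokinase receptor, was measured by a probe set (1387269_s_at) whose name marks probes shared by several transcripts. At 120 min of ischemia+reperfusion its intensities were 866, 928, 410 and 520, against 379, 325, 273 and 283 at 0 min. All 4 arrays at 120 min lay above all 4 at 0 min, at a fold of 2.01 (95% interval of the log2 difference 0.47 to 1.54), and the 1st preparation (1.31) was further apart than the 2nd (0.70). In this comparison limma called 7.17% of all probe sets, and 14.8% had arrays that did not overlap. Of the 8 member probe sets, 1 was called and 5 had an unadjusted p under 0.05, against 24% of all probe sets.

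At 60 min of ischemia+reperfusion, Plaur had 516, 499, 653 and 555, above all arrays at 0 min, and the log2 difference was 0.79 ± 0.245 (adjusted p = 0.085). Here 4.69% of probe sets were called and 18.3% did not overlap. Mean intensity in this arm was 315 at 0 min, 371 at 10 min, 389 at 30 min, 556 at 60 min and 681 at 120 min, so the means were ordered by labelled time. The F test over the 5 times gave an adjusted p of 0.095.

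In ischemia alone, Plaur at 120 min had 599, 526, 521 and 982, against 413, 432, 366 and 401 at 0 min. The groups did not overlap, as for 18.9% of probe sets, and the log2 difference was 0.64 ± 0.245 (adjusted p = 0.104), in a comparison with 12.9% called. At 10 min of ischemia it had 328, 371, 282 and 181, with 3 of the 4 below all arrays at 0 min and a log2 difference from 0 min of -0.49 (adjusted p = 0.26). Mean intensity in this arm was 403, 291, 450, 417 and 657 at 0, 10, 30, 60 and 120 min, and the F test gave an adjusted p of 0.095.

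At 120 min the pair of arrays that stood out of place held the lowest Plaur value of ischemia+reperfusion and the highest of ischemia. The value of 410 is the ischemia+reperfusion array with the low Hspa1a, and the value of 982 is the ischemia array with the high Hspa1a. The other 2nd preparation array of ischemia+reperfusion, which was not in doubt, had 520, also below the 866 and 928 of the 1st preparation. Without the 5 doubted arrays the difference from 0 min in ischemia+reperfusion was 1.09 ± 0.20 at 120 min (adjusted p = 0.010). The 60 min comparison in this arm holds none of the 5 arrays, and its difference stayed at 0.79. It was then called (adjusted p = 0.043), as the SE, from a spread shared by all groups, went from 0.245 to 0.20. In ischemia at 120 min the difference without the 5 arrays was 0.40 (adjusted p = 0.20). Between the arms at 120 min the log2 difference was 0.02 with all arrays (adjusted p = 0.998) and 0.33 without the 5 (adjusted p = 0.37).

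The call at 120 min did not hold under every alternative. It was lost on the deposited scale (0.89, adjusted p = 0.085), without the preparation block (1.01, adjusted p = 0.065), with no filter on dim probe sets (adjusted p = 0.065), and without the 2nd preparation, duplicate 2 array at 120 min (0.92, adjusted p = 0.059). The arm-specific changes of Plaur were not shown to differ: the difference of the arms in the change to 120 min was 0.37 ± 0.346 (adjusted p = 0.72). The dimmer Plaur probe set, 1371286_at, had a mean intensity of 42.3, under the limit of 73.2, and group means of log2 values from 5.54 to 6.11.

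Beside the Plaur rise at 120 min of ischemia+reperfusion, the summed leukocyte markers were 6147 to 7989, against 5823 to 7347 at 0 min, and 0 of 9 rose while Mrc1, a macrophage mannose receptor, fell (-0.69, adjusted p = 0.03). The summed fibroblast markers were 42196 to 46255, against 37464 to 45814 at 0 min, and 0 of 9 rose while Tcf21, a fibroblast transcription factor, fell (-0.61, adjusted p = 0.044). Of 6 endothelial markers tested, 0 were called in limma, with 2 at an unadjusted p under 0.05, against 24% of all probe sets. Of 5 smooth muscle and mural markers 1 rose, the pericyte proteoglycan Cspg4 (0.88 ± 0.19, adjusted p = 0.025), and their sum was 2933 to 3611, against 2305 to 3252 at 0 min. Of 12 cardiomyocyte markers 1 rose, the myosin heavy chain Myh7 (0.33 ± 0.08, adjusted p = 0.036), and their sum was 113460 to 117080, against 109650 to 113360 at 0 min. The part of these cell types in the Plaur rise was not tested, and the marker genes named here were chosen after their values were seen.

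**Figure D3:**
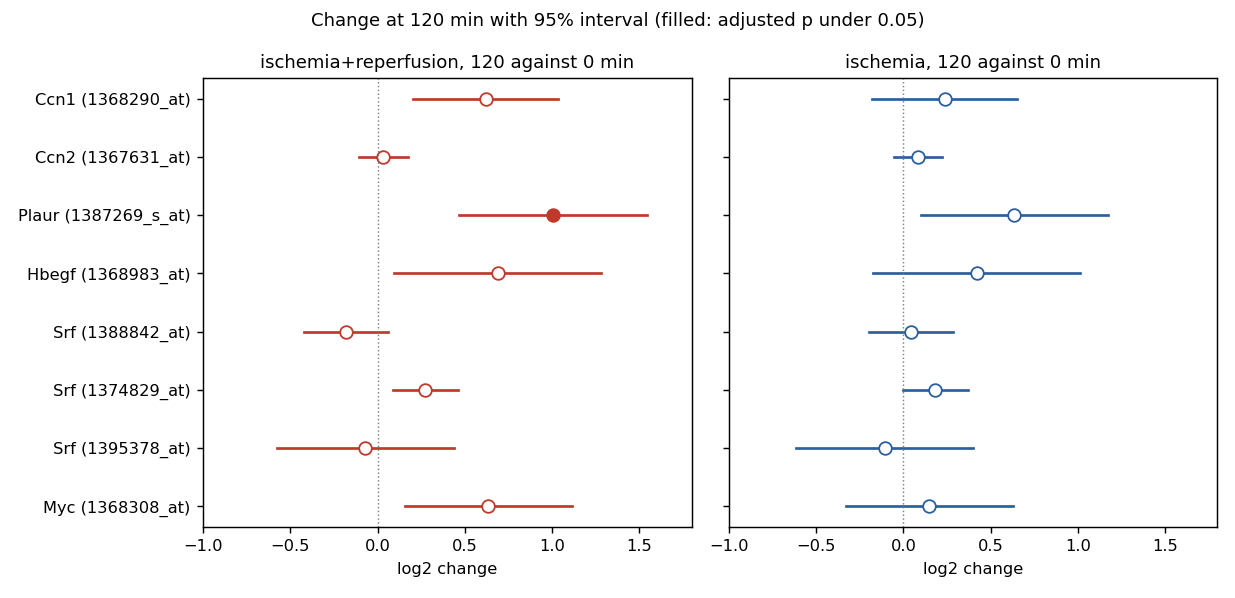
Log2 difference of 120 min minus 0 min for the 8 tested probe sets, with 95% intervals, in ischemia+reperfusion (left panel) and ischemia (right panel). The filled point is Plaur in ischemia+reperfusion (1.01), and the intervals of Ccn1, Hbegf, Myc and Srf 1374829_at in that panel lie above 0 without a call.

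Hbegf, the EGF receptor ligand, had its lowest and highest array values far apart within single groups (1368983_at). At 120 min of ischemia+reperfusion it had 1099, 1527, 722 and 1190, against 885, 1019, 683 and 333 at 0 min. The groups overlapped, and the log2 difference was 0.69 ± 0.27 (adjusted p = 0.15), or 0.87 ± 0.29 without the doubted arrays (adjusted p = 0.089). At 60 min of ischemia+reperfusion it was 0.70 (adjusted p = 0.15), 0.15 in the 1st and 1.26 in the 2nd preparation. The array with 333 at 0 min was the lowest of all 40.

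In ischemia, Hbegf at 120 min had 1184, 1631, 598 and 1755, against 883, 1025, 565 and 1219 at 0 min, a log2 difference of 0.42 (adjusted p = 0.31). Without the 5 doubted arrays it was -0.01, so this value rested on those arrays. In the order of its 10 group means, from 10.24 in ischemia at 120 min to 9.43 in ischemia+reperfusion at 0 min, every gap between neighbours was below the larger SD of the pair. The arms did not differ by a call at any time, and the widest difference was -0.39 at 0 min (interval -0.98 to 0.20). At 120 min it was -0.12 with all arrays and 0.44 without the doubted ones (adjusted p = 0.41).

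Myc had its highest mean at 120 min of ischemia+reperfusion (1368308_at). Its intensities were 1004, 932, 813 and 1043 there, against 855, 634, 627 and 386 at 0 min. A single array of 0 min, 855, lay above the lowest array of 120 min, and the log2 difference was 0.63 ± 0.219 (interval 0.15 to 1.11, adjusted p = 0.104), or 0.72 ± 0.22 without the doubted arrays (adjusted p = 0.066). In ischemia Myc had 658, 664, 917 and 946 at 120 min, against 857, 743, 607 and 641 at 0 min. The preparations went opposite ways there, -0.27 in the 1st and 0.57 in the 2nd, and the difference was 0.15 (adjusted p = 0.67).

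The array of 2nd preparation, duplicate 2, at 0 min of ischemia+reperfusion was the lowest of all 40 for both Hbegf (333) and Myc (386). The 120 min differences in this arm are measured against a group that holds it. Mean Myc intensity in ischemia+reperfusion was 626 at 0 min, 692 at 10 min, 643 at 30 min, 786 at 60 min and 948 at 120 min. In ischemia it was 712, 843, 784, 753 and 796 at the same times, and all neighbours in the order of its 10 group means lay within the larger SD.

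Srf, whose promoter window held the 2 CArG matches printed here, was measured by 3 probe sets that did not move alike. The brightest, 1388842_at, had 2624, 2922, 2949 and 2691 at 120 min of ischemia+reperfusion, against 3106, 3330, 3183 and 3065 at 0 min. All arrays at 120 min lay below those at 0 min, and 14.8% of all probe sets had arrays that did not overlap. The log2 difference was only -0.18 ± 0.109 (adjusted p = 0.35), or -0.21 without the doubted arrays (adjusted p = 0.29). At 60 min the arrays were also all below, where 18.3% did not overlap, with a difference of -0.11 (adjusted p = 0.59).

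The second probe set, 1374829_at, went the other way. It had 521, 544, 511 and 550 at 120 min of ischemia+reperfusion, against 482, 430, 339 and 516 at 0 min, a log2 difference of 0.27 ± 0.084 (adjusted p = 0.075), or 0.30 ± 0.11 without the doubted arrays (adjusted p = 0.12). At 60 min its arrays lay above all at 0 min, where 18.3% of all probe sets did not overlap, and the difference was 0.29 ± 0.084 (adjusted p = 0.075). The dimmest, 1395378_at, stood out at 10 min, with 164, 160, 172 and 177 in ischemia+reperfusion and 103, 94, 148 and 78 in ischemia. The arms did not overlap there, as for 9.41% of probe sets, with a log2 difference of 0.63 ± 0.232 (adjusted p = 0.42, or 0.46 without the doubted arrays), in a comparison where 0% of all probe sets were called.

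None of the 3 Srf probe sets passed limma's threshold, and a level of Srf RNA cannot be read from any one of them alone. Over the 10 group means, 1388842_at correlated with 1374829_at by -0.306 and with 1395378_at by 0.321, and the other two by -0.714. These are descriptions over 10 group means that were scaled together and taken to share preparations.

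**Figure D4:**
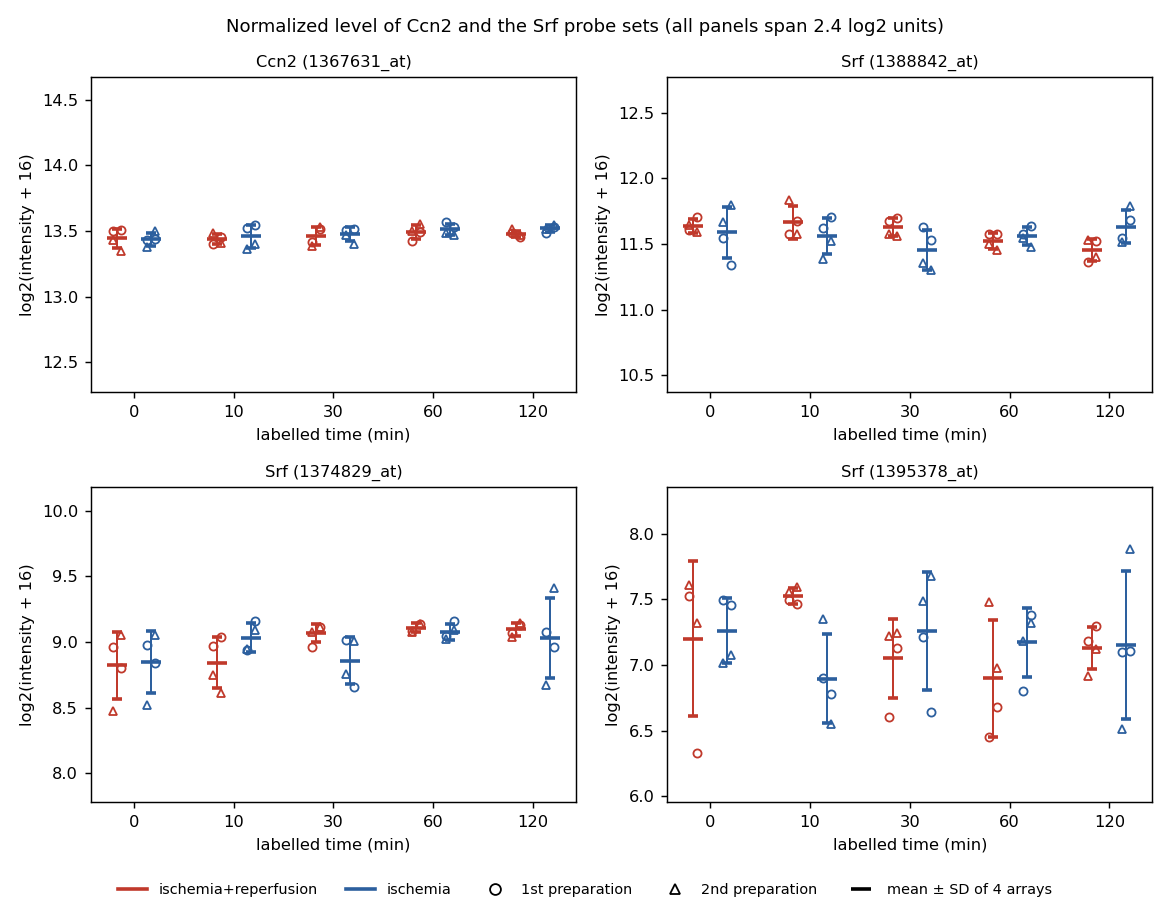
Normalized level, log2(intensity + 16), of Ccn2 and the 3 Srf probe sets on each array against the labelled time in min, ischemia+reperfusion in red left of ischemia in blue, with the mean ± SD of 4 arrays. All panels span the same height, so Ccn2, whose group means span 0.083 log2 units, lies flat beside Srf 1395378_at, whose group means span 0.631.

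In the remaining comparisons limma called 0 of the 8 member probe sets. At 10 min of ischemia+reperfusion against 0 min, 0 had an unadjusted p under 0.05, against 11.3% of all probe sets (0.0376% called). In ischemia it was also 0, against 22% of all probe sets (1.98% called). At 30 min of ischemia+reperfusion, Srf 1374829_at alone had an unadjusted p under 0.05 (0.25 log2 units, adjusted p = 0.20), with 0.784% called. Over all probe sets 14.8% had one there. At 120 min between the arms 0 members had one, against 7.16% of all probe sets, and 0% of all probe sets were called. In the tests of the difference of the arms in the change from 0 min, 0% of probe sets were called at 10, 30, 60 or 120 min. Of the members only Plaur at 60 min had an unadjusted p under 0.05 (0.76 ± 0.346, adjusted p = 0.47). Over all probe sets 12.3%, 5.76%, 10.7% and 10.4% had one at these times.

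The F tests over all times called 4.57% of probe sets in ischemia and 3.61% in ischemia+reperfusion, and 0.00537% for the difference of the arms. Of the 8 members 0 were called in these 3 tests, with 2, 3 and 1 at an unadjusted p under 0.05. Over all probe sets 26.5%, 24.3% and 11.3% had one. The lowest adjusted p-values of members were 0.068 for Ccn1 in ischemia, 0.095 for Plaur in ischemia+reperfusion and 0.35 for Ccn1 between the arms.

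Across all 8 tested probe sets, 6 lay above 0 at 120 min of ischemia+reperfusion, with a median of 0.447, from -0.18 to 1.01. Over all probe sets the median was -0.021, and 45.7% lay above 0. At 120 min of ischemia 7 of 8 lay above 0, with a median of 0.166, from -0.11 to 0.64, beside a median of 0 over all probe sets. The members are not replicates, since 3 of the 8 probe sets measure Srf, and the arms were taken to share the preparations.

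The profiles of the members over the 10 group means differed. Hbegf correlated with Myc by 0.82 and with Plaur by 0.806, while Ccn1 correlated with Plaur by 0.386, and with Ccn2 by 0.655. Among all genes with a single symbol, the profiles most like Ccn1 were Egr1 (0.957), an immediate early zinc finger factor, Rab24 (0.945) and Myh1 (0.944). Those most like Plaur were Pfdn4 (0.98), Ier3 (0.96), an immediate early gene, and Mcfd2 (0.958). Those most like Hbegf were Hmga1 (0.968), Hdac5 (0.956) and Bmp2 (0.949), and those most like Myc were Ocel1 (0.918), Apeg3 (0.909) and Jag2 (0.904).

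Apeg3 (0.935) was also the gene most like Ccn2, before Usp19 (0.932) and Vat1 (0.929). For Srf 1388842_at the profiles most like it were Rpl28 (0.927), L3mbtl3 (0.905) and Zdhhc14 (0.879). With 10 points and 18625 probe sets, high values of this kind are common. The group means were also scaled together and taken to share preparations.

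Around the members, the partners in each pathway were read at 120 min, when limma called 3.5% of all probe sets higher and 3.68% lower in ischemia+reperfusion, and 6.45% higher and 6.48% lower in ischemia. An unadjusted p under 0.05 was found for 24% of all probe sets in ischemia+reperfusion and 31.8% in ischemia. Markers of other cell types rose in the same ischemia comparison: 3 of 9 fibroblast markers (Ddr2, Fbln2 and Pdgfra), 3 of 6 endothelial markers (Pecam1, Tek and Tie1) and 2 of 5 smooth muscle and mural markers (Rgs5 and Smtn). Their sums were 42680 to 44982, 2100 to 3048 and 3508 to 3779 at 120 min, against 34993 to 40671, 1782 to 2423 and 2690 to 3004 at 0 min. Their part in the ischemia values of Plaur and of the pathway genes was not tested.

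Of 5 other CCN and thrombospondin genes tested, 0 were called in either arm, with medians of -0.103 in ischemia+reperfusion and 0.168 in ischemia. Each arm had 1 of them at an unadjusted p under 0.05. Of 11 receptors of CCN proteins and thrombospondins, Itgb3, the beta chain of the vitronectin receptor, rose in ischemia+reperfusion (0.54 ± 0.111, adjusted p = 0.02). In ischemia, Itgb3 (0.44 ± 0.111, adjusted p = 0.028) and the leukocyte integrin chain Itgb2 (0.48 ± 0.096, adjusted p = 0.012) rose. The other 10 and 9 did not pass, and 4 and 5 of the 11 had an unadjusted p under 0.05.

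Of 8 genes of plasminogen activation, the system in which Plaur acts, only Serpinb2, an inhibitor of urokinase, was called. It rose by 2.11 ± 0.29 log2 units at 120 min of ischemia+reperfusion (adjusted p = 0.0057), and its change in ischemia was 0.96 (adjusted p = 0.051). Urokinase itself, Plau, had -0.31 in ischemia+reperfusion (adjusted p = 0.18) and 0.04 in ischemia (adjusted p = 0.86). Of these 8 genes, 6 in ischemia+reperfusion and 4 in ischemia had an unadjusted p under 0.05. In the EGF family, the system of Hbegf, 2 of 9 genes rose in ischemia+reperfusion, the ligands Tgfa (0.64 ± 0.139, adjusted p = 0.025) and Ereg (0.54 ± 0.07, adjusted p = 0.0043). In ischemia Ereg alone rose (0.29 ± 0.07, adjusted p = 0.024). An unadjusted p under 0.05 was found for 4 of the 9 in ischemia+reperfusion and 5 in ischemia.

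Targets of the transcription factors among the members did not pass. Of 16 SRF targets, mostly actins and actin-binding proteins, 0 were called in either arm, with medians of 0.032 in ischemia+reperfusion and 0.042 in ischemia, and with 0 and 1 at an unadjusted p under 0.05. Of 15 MYC targets, mostly of ribosome production, 0 were called in either arm, with medians of -0.005 and 0.038, and with 1 and 2 at an unadjusted p under 0.05. Of 5 SRF cofactors, Elk3, an ETS repressor, rose in ischemia (0.26 ± 0.069, adjusted p = 0.034), and 0 were called in ischemia+reperfusion. In each arm 2 of the 5 had an unadjusted p under 0.05.

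Of 10 genes of the MYC network, Mxd1, which competes with Myc for Max, rose in ischemia+reperfusion (0.77 ± 0.199, adjusted p = 0.042), and 0 were called in ischemia. An unadjusted p under 0.05 was found for 3 of the 10 in ischemia+reperfusion and 5 in ischemia. Of 16 YAP and TEAD genes, 0 were called in ischemia+reperfusion, and the factor Tead3 rose in ischemia (0.76 ± 0.2, adjusted p = 0.032). In each arm 2 of the 16 had an unadjusted p under 0.05. Of 10 TGF-beta pathway genes, 0 were called in ischemia+reperfusion, and Ltbp1, which tethers latent TGF-beta (0.5 ± 0.14), and Smad4 (0.29 ± 0.084) rose in ischemia. An unadjusted p under 0.05 was found for 2 of the 10 in ischemia+reperfusion and 3 in ischemia. Of 7 other matricellular genes, 0 were called in either arm, with medians of 0.027 in ischemia+reperfusion and 0.169 in ischemia. Their counts with an unadjusted p under 0.05 were 3 and 1. The test of the difference of the arms in the change to 120 min called 0% of all probe sets. These lists were thus not shown to differ there, and the test cannot single them out. Directly between the arms, 0% of all probe sets were called at 120 min. At 60 min, with 5.38% called, 2 EGF family genes were higher in ischemia+reperfusion. The same held for 1 gene each of plasminogen activation, SRF targets, MYC network and MYC targets, while 1 TGF-beta gene was lower. At 30 min, with 0.532% called, 1 EGF family and 1 MYC network gene were higher.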

How the data were processed

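Per the labels, total RNA was purified on spin columns and turned into biotin-labelled cRNA. The deposited values are probe set intensities on a linear scale, with array medians of 101 to 171 and 15.8% of values below 0. The authors' algorithm for them was not given in the sources used here. Platform annotation gave 1 symbol to 20826 probe sets, several to 436 and none to 9780, and only probe sets with 1 symbol were named. Intensities were quantile-normalized, floored at 0 and transformed as log2(value + 16), which understates changes of dim probe sets. Probe sets above the 40th percentile of mean log2 value (6.48) were tested, 18625 in all.

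Duplicates were averaged, and the 10 groups were fitted together with limma 3.58.1 in R 4.3.3 with the preparation as a block (9 residual degrees of freedom, prior 2.27). Two-sided tests were Benjamini-Hochberg adjusted within each comparison. The labels number the preparations 1st and 2nd in each group, and the same number was taken as the same preparation in all groups. The sample titles do not state this. Between groups, the 2nd minus 1st preparation differences had a median correlation of 0.18, above 0.1 in 34 of 45 pairs. The median SE was 0.118, a precision limited by the 2 preparations per group. The fit was tested on simulated data.

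The members, gene lists and doubted arrays were chosen with earlier results of these data known. All member probe sets were described, with the 3 genes of the most alike profile for each, and of each list at most 4 called genes per arm at 120 min. A gene of a list is read from its brightest tested probe set. Alternatives were the deposited scale, median centring, a pseudocount of 64, no filter on dim probe sets, no block, arrays as samples, and leaving out arrays.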

Additional observations from a re-analysis of the deposited data

Results flagged for a closer look

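Of 90 groups of 4 arrays examined (9 member probe sets in 10 groups), 2 held an array far from the other 3, and chance alone marks about 1 in 20 such groups. Hbegf at 30 min of ischemia had a log2 value of 10.59 on the array of the 1st preparation, duplicate 1, where the other 3 arrays had 9.73 to 9.86. The dim Plaur probe set 1371286_at at 0 min of ischemia had a log2 value of 4, the floor, on the array of the 1st preparation, duplicate 2, where the other 3 had 6.07 to 6.28. That Plaur probe set was below the brightness limit and entered no test.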

How the results depend on the processing

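The Plaur change at 120 min of ischemia+reperfusion kept its direction under all alternatives run (0.89 to 1.09) but not always its call. Its values were 0.89 on the deposited scale (adjusted p = 0.085), 1.01 with no filter on dim probe sets (0.065), 1.01 with no replicate block (0.065), and 0.92 to 1.09 with 1 array left out. The Ccn1 difference of the arms at 60 min kept its direction (-1.01 to -0.73) and its call, except with no replicate block (-0.93, adjusted p = 0.053). The number of member probe sets called at 120 min of ischemia+reperfusion (1) was 0 on the deposited scale, with no filter and with no replicate block, 3 with arrays as samples and 0 to 4 with 1 array left out. At 60 min of ischemia+reperfusion (0) it was 1 with arrays as samples, without the 120 min pair and without the 5 doubted arrays, and 0 to 1 with 1 array left out. Between the arms it was 2 at 60 min (1) with median-centred arrays and 0 with no replicate block. At 30 min (0) it was 1 with median-centred arrays, a pseudocount of 64, arrays as samples and without the 5 doubted arrays, and 0 to 1 with 1 array left out. With arrays as samples, 1 was called at 60 and 1 at 120 min of ischemia, and 2 in the F test of either arm; that of ischemia gave 1 with median-centred arrays, and that of ischemia+reperfusion gave 1 without the 120 min pair and 1 without the 5 doubted arrays. The cause was not tested. The 2 called values did not reverse under any alternative run, and the block changed no other member call. Among values that were not called, the sign turned without the 5 doubted arrays for, among others, Hbegf at 120 min of ischemia (-0.01) and between the arms at 120 min (0.44), Srf 1395378_at between the arms at 120 min (0.37) and Ccn1 at 30 min of ischemia+reperfusion (0.06).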
